A study of Mus musculus with 3 samples.

Results

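The hematopoietic cytokine receptors followed here were Csf3r, Csf1r, Csf2ra, Csf2rb, Epor, Il3ra, Il6ra, Il6st and Il7r in LT-HSCs, the long-term hematopoietic stem cells, of mice that had lost Atm, or were labelled as having lost Atm and p38α. These 9 genes were chosen by name from the 37074 gene names of the array design, and all of their probes were used, 19 of the 56605 probes that were not controls. Each genotype gave 1 RNA sample, read in the Cy3 channel of 1 Agilent array, and the 3 arrays gave 3 comparisons. No group had a replicate, and each comparison below therefore compares arrays and not conditions, with no p-value. How many mice gave the cells of an array was not stated.

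The array named AtmsKO came from mice carrying CAG-CreERT2 and Atm flox/flox, and the array named Atmp38dKO from mice carrying CAG-CreERT2 with both Atm flox/flox and p38α flox/flox, with tamoxifen (TAM) given at about 5 weeks of age. CAG is a promoter that is active in nearly all tissues, so the recombination was not limited to blood cells. The array named WT came from controls, which in the methods for such mice were TAM-treated animals with floxed alleles and no Cre, although which floxed alleles the WT sample carried was not stated. All mice were C57BL/6J. The sample labels give an age of 11 weeks, whereas the series text puts the analysis 4 weeks after TAM. The cells were sorted from femur and tibia as CD150+CD48-Flt3-CD34- Lin-Sca-1+c-Kit+ cells by the labels, as CD34-Flt3- Lin-Sca-1+c-Kit+ cells by the series text, and with an added CD41- gate by the methods.

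Cytokine receptors of this family have no enzyme activity of their own and signal through bound JAK kinases, which phosphorylate STAT transcription factors. Many share a subunit: Csf2rb, the common beta chain, pairs with the alpha chains Csf2ra for GM-CSF and Il3ra for IL-3, and Il6st, also called gp130, serves IL-6, oncostatin M, LIF and IL-11 receptors. Csf1r differs in being a receptor tyrosine kinase. In bone marrow these receptors are known for driving the growth and maturation of granulocytes (Csf3r), monocytes and macrophages (Csf1r), red cells (Epor) and lymphocytes (Il7r).

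The probes of Csf2rb and Il6st are shown because probes of these genes differed from each other in what they read. The stretches below are the first 30 of the 60 bases of each probe, with positions on the mm9 genome build as given in the array files, and carry no capitals because no part is marked.
Csf2rb, plot probe 1, chr15:78176856-78177118: cctcaccttgctcctgatccttcgctttgg
Csf2rb, plot probe 2, chr15:78181168-78181227: tcactcacatgatggcagacatagaatgtg
Csf2rb, plot probe 3, chr15:78179450-78179509: tctgtgttctgagactgaggacctagtcca
Csf2rb, plot probe 4, chr15:78184049-78184108: tctaccctttctgcccatggatgcttgggc
Csf2rb2, plot probe 1, chr15:78113126-78113185: aaccctaagcaggcagatcaagtgttcctt
Il6st, plot probe 1, chr13:113294595-113294654: aaattcccaaaagttacttgccacagactg
Il6st, plot probe 2, chr13:113296586-113296645: atcttctcacagtaagcagtctagttatgg
Il6st, plot probe 3, chr13:113273739-113273798: cttttctgtaccaaaattctacttcccagc

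The Csf2rb2 probe lies on the minus strand and the others on the plus strand. Plot probe 1 of Csf2rb covers 263 bases of the genome with its 60 bases, that is, it crosses at least 1 intron. Csf2rb2 encodes a beta chain for the IL-3 receptor, is a near-identical paralog of Csf2rb, and has no protein-coding gene between it and Csf2rb in the RefSeq annotation of GRCm38.p6. Of the 19 receptor probes, 16 are named by a RefSeq transcript and 3 by a cDNA clone alone: plot probe 4 of Csf2rb, plot probe 3 of Il6st and plot probe 2 of Il7r. Plot probe 3 of Csf2rb is listed for transcripts of both Csf2rb and Csf2rb2, so its signal cannot be split between these genes.

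Values given as signal are the scanner software's processed, background-subtracted intensities, each with the error its model gives for that spot, which covers the spot on its array and not the spread between animals. Differences are on the log2 scale, after dividing each signal by its array's 75th percentile, which was 102 in WT, 96.2 in AtmsKO and 118 in Atmp38dKO. A difference of 1, which is 2-fold, served as the threshold, and a probe entered a comparison if 1 or both of its arrays read it well above background. Where 1 array was not, its value was raised to the dimmest signal that still counted as well above background there, and the difference is given as "at least". Signals of different probes are not compared with each other, since probes differ in how well they bind. In such bulk samples fewer cells of a type and less RNA per cell cannot be told apart.

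Across the arrays, 68.9% to 77.7% of probes were well above background. The Atm probes read 88.8 and 87.0 in WT, 16.3 and 23.9 in AtmsKO and 49.0 and 86.5 in Atmp38dKO, so that Atm was lower by 2.37 and 1.79 on the log2 scale in AtmsKO against WT but by 1.07 and 0.22 in Atmp38dKO against WT. The 2 probes of Mapk14, which encodes p38α, did not fall on the Atmp38dKO array, with differences from WT of 0.01 and 0.18, and where its deleted exons lie relative to the probes was not analysed here. The array labelled Atmp38dKO is therefore named by its label only, in each comparison that follows. All 15 LT-HSC marker genes were well above background on all 3 arrays. Of markers of mature cells, 13, 13 and 14 of 14 granulocyte genes and 10, 8 and 8 of 15 monocyte and macrophage genes were well above background on the 3 arrays in the order WT, AtmsKO, Atmp38dKO, whereas Ccr2, Cx3cr1, Fcgr1 and Mrc1 were among those that were not on any array. The summed signals of the granulocyte list, each relative to the 75th percentile, were 31.7, 37.3 and 36.7, and those of the monocyte and macrophage list 7.87, 8.36 and 7.02.

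Differences could be read for 8 of the 9 receptors, Il7r being too dim, and few of their probes reached 2-fold. In AtmsKO against WT, 2 of 17 receptor probes considered were at least 2-fold higher and 0 were at least 2-fold lower, where 4.29% and 4.74% of all 42936 probes considered were. In Atmp38dKO against WT, 0 of 16 receptor probes passed in either direction, where 4.69% of all 45519 probes were at least 2-fold higher and 5.07% at least 2-fold lower. In Atmp38dKO against AtmsKO, 0 of 17 were higher and 1 was lower, where 4.39% and 4.07% of 44794 probes were. The median difference of the receptor probes was -0.02, -0.09 and -0.06 in these comparisons, beside medians over all probes of 0.003, 0.018 and -0.002. The median size of the difference, whatever its sign, was 0.24, 0.18 and 0.31 over the receptor probes and 0.27, 0.29 and 0.26 over all probes, so the receptors lay near the array as a whole. The comparisons share arrays, so their values are not independent of each other. Of the 19 probes, 16 were well above background on all 3 arrays, 1 on a single array and 2 on none.

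**Figure D1:**
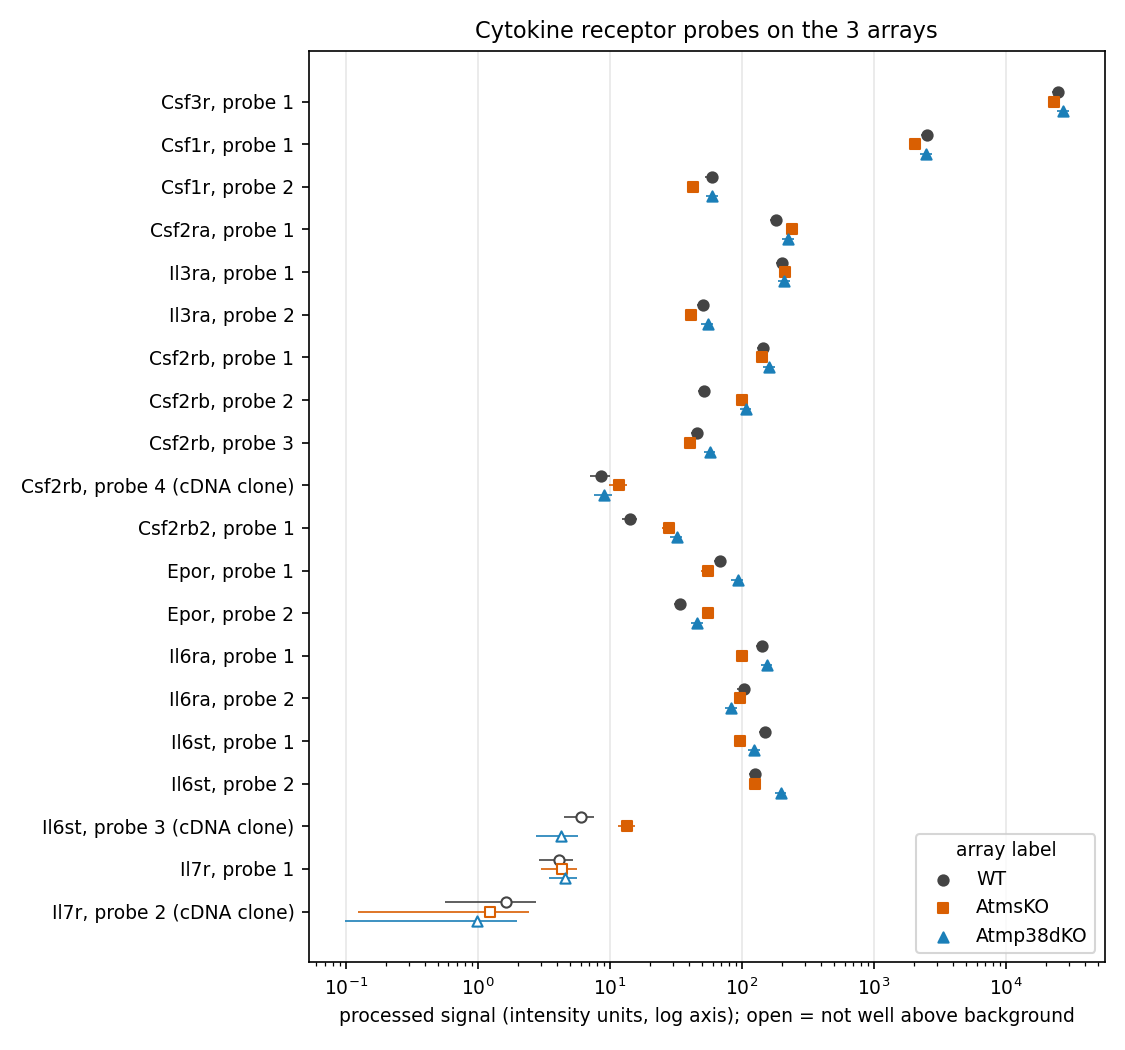
Processed signal (intensity units, logarithmic x axis) of every probe of the 9 receptors and of Csf2rb2 on the WT (circle), AtmsKO (square) and Atmp38dKO (triangle) arrays, before scaling, with bars for the scanner's error of the spot; open symbols were not well above background. The 3 arrays lie close together for most probes, Csf2rb probe 2 and Csf2rb2 are lower on the WT array than on the other arrays, and both Il7r probes are open on every array.

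Among the receptors of the myeloid colony-stimulating factors, Csf3r, the G-CSF receptor, read 24684 ± 2468 in WT, 23058 ± 2306 in AtmsKO and 27141 ± 2714 in Atmp38dKO (± scanner error, 1 spot each). After scaling these values differed by -0.02, -0.08 and -0.06 in AtmsKO against WT, Atmp38dKO against WT and Atmp38dKO against AtmsKO, each less than the scanner error of the difference, 0.20. Its only probe lies at chr4:125721478-125721537 (mm9). From high to low after scaling its levels were ordered WT, AtmsKO, Atmp38dKO, with no neighbours differing beyond that error, and quantile normalization and normexp moved Atmp38dKO above WT, by 0.07 and 0.04.

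Csf1r, the receptor of M-CSF and IL-34, has 2 probes on the array. The probe with the higher signal read 2530 ± 253 in WT, 2058 ± 206 in AtmsKO and 2492 ± 249 in Atmp38dKO. Its differences from WT were -0.22 in AtmsKO and -0.24 in Atmp38dKO, close to the scanner error of 0.20. The other probe read 59.1, 43.0 and 59.9, with differences from WT of -0.38 and -0.19. Both probes were thus highest after scaling on the WT array, by less than the threshold.

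Csf2ra, the GM-CSF binding alpha chain, read 181 ± 18.2, 239 ± 24 and 224 ± 22.4 on the 3 arrays in the order WT, AtmsKO, Atmp38dKO. Its difference from WT was 0.48 in AtmsKO and 0.09 in Atmp38dKO. Il3ra, the IL-3 binding alpha chain, read 202 ± 20.2, 212 ± 21.3 and 210 ± 21.0 at one probe, with differences from WT of 0.15 and -0.16. Its other probe read 50.7, 41.3 and 55.1, with differences of -0.22 and -0.09, so that the 2 probes went opposite ways in AtmsKO against WT.

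Csf2rb, the shared beta chain of the GM-CSF, IL-3 and IL-5 receptors, was the only gene of the 9 with a probe at least 2-fold higher that was well above background on both arrays. Plot probe 2 read 51.7 ± 5.29 in WT, 100 ± 10.1 in AtmsKO and 107 ± 10.8 in Atmp38dKO. Its difference from WT was 1.03 in AtmsKO (scanner error 0.21), which is 2.04-fold, and 0.84 in Atmp38dKO, which is 1.78-fold. The AtmsKO and Atmp38dKO arrays differed by -0.19 at this probe. With a normexp background correction in place of the scanner's, the difference from WT was 0.61 in AtmsKO and 0.48 in Atmp38dKO, so neither passed the threshold.

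The other probes of Csf2rb did not show this. Plot probe 1, which has the highest signal of them, read 144 ± 14.5, 142 ± 14.3 and 162 ± 16.2 on the 3 arrays in the order WT, AtmsKO, Atmp38dKO, with differences from WT of 0.06 and -0.05. Plot probe 3, which is listed for Csf2rb2 too, read 46.1, 40.8 and 57.2, with differences of -0.10 and 0.10. Plot probe 4, named by a clone, read 8.61, 11.7 and 8.98, with differences of 0.52 and -0.15. The WT array was therefore clearly lowest at 1 of the 4 probes only.

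Csf2rb2, which is not one of the 9 genes, read 14.3 at its only probe in WT, 28.0 in AtmsKO and 32.1 in Atmp38dKO. Its differences from WT were 1.04 and 0.95, which lie near those of plot probe 2 of Csf2rb. With the normexp correction they were 0.29 and 0.17. Whether plot probe 2 of Csf2rb also binds Csf2rb2 transcripts was not tested, and the array files list it for Csf2rb only.

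Epor, the erythropoietin receptor of red cell precursors, has 2 probes that went opposite ways in AtmsKO against WT. The probe at chr9:21763422-21763481 read 68.8 ± 6.98, 55.0 ± 5.68 and 92.8 ± 9.34 on the 3 arrays in the order WT, AtmsKO, Atmp38dKO, with differences from WT of -0.24 and 0.22. The probe at chr9:21766036-21766180 read 34.2 ± 3.68, 55.4 ± 5.74 and 45.7 ± 4.73, with differences of 0.77 and 0.20. In Atmp38dKO against AtmsKO the first differed by 0.46 and the second by -0.57. No direction for Epor is given for these 2 comparisons, since its probes did not share one.

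Il6ra, which binds IL-6, read 143 ± 14.3, 100 ± 10.1 and 155 ± 15.5 at the probe at chr3:89674054-89674113 on the 3 arrays in the order WT, AtmsKO, Atmp38dKO. Its differences from WT were -0.43 in AtmsKO and -0.10 in Atmp38dKO. The probe at chr3:89680743-89680802 read 103 ± 10.4, 96.3 ± 9.76 and 82.8 ± 8.38, with differences of -0.02 and -0.53. All 4 of these differences from WT were below 0 and short of the threshold, and 2 of them were smaller than the scanner error.

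Il6st, the signal-transducing partner of Il6ra, was read by 2 probes of its RefSeq transcript and by 1 probe of a cDNA clone. Plot probe 2 read 126 ± 12.7, 126 ± 12.6 and 198 ± 19.8 on the 3 arrays in the order WT, AtmsKO, Atmp38dKO, with differences from WT of 0.07 and 0.43. Plot probe 1 read 149 ± 15, 96.9 ± 9.78 and 124 ± 12.4, with differences of -0.55 and -0.48. In Atmp38dKO against WT these probes thus went opposite ways, although they lie near each other.

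Plot probe 3 of Il6st was well above background on the AtmsKO array only, where it read 13.5 ± 2.00, against 6.04 ± 1.57 on the WT array and 4.27 ± 1.51 on the Atmp38dKO array. It was at least 2.35-fold higher in AtmsKO than in WT, and at least 3.32-fold lower in Atmp38dKO than in AtmsKO. It is the second receptor probe past the threshold in the first of these comparisons and the only one in the other. Spots printed more than once on an array and reading below 20 units had a median spread (SD) of 0.261 to 0.299 on the log2 scale, over 10 to 12 probes an array. Without the clone probe, no Il6st probe reached 2-fold in any comparison.

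Il7r, the IL-7 receptor chain of lymphoid precursors, was not well above background on any array. Its probe of the RefSeq transcript read 4.09 ± 1.16, 4.36 ± 1.33 and 4.56 ± 1.1 on the 3 arrays in the order WT, AtmsKO, Atmp38dKO, and its clone probe 1.65, 1.23 and 0.989. No difference is given for it. Il2rg, the gamma chain that pairs with Il7r, read 3037, 2963 and 3573, and Crlf2, which pairs with Il7r in the TSLP receptor, 581, 533 and 643. Both were well above background on all arrays, and their differences from WT were 0.04 and 0.02 for Il2rg and -0.05 and -0.07 for Crlf2, whose other probe differed by -0.27 and -0.75.

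**Figure D2:**
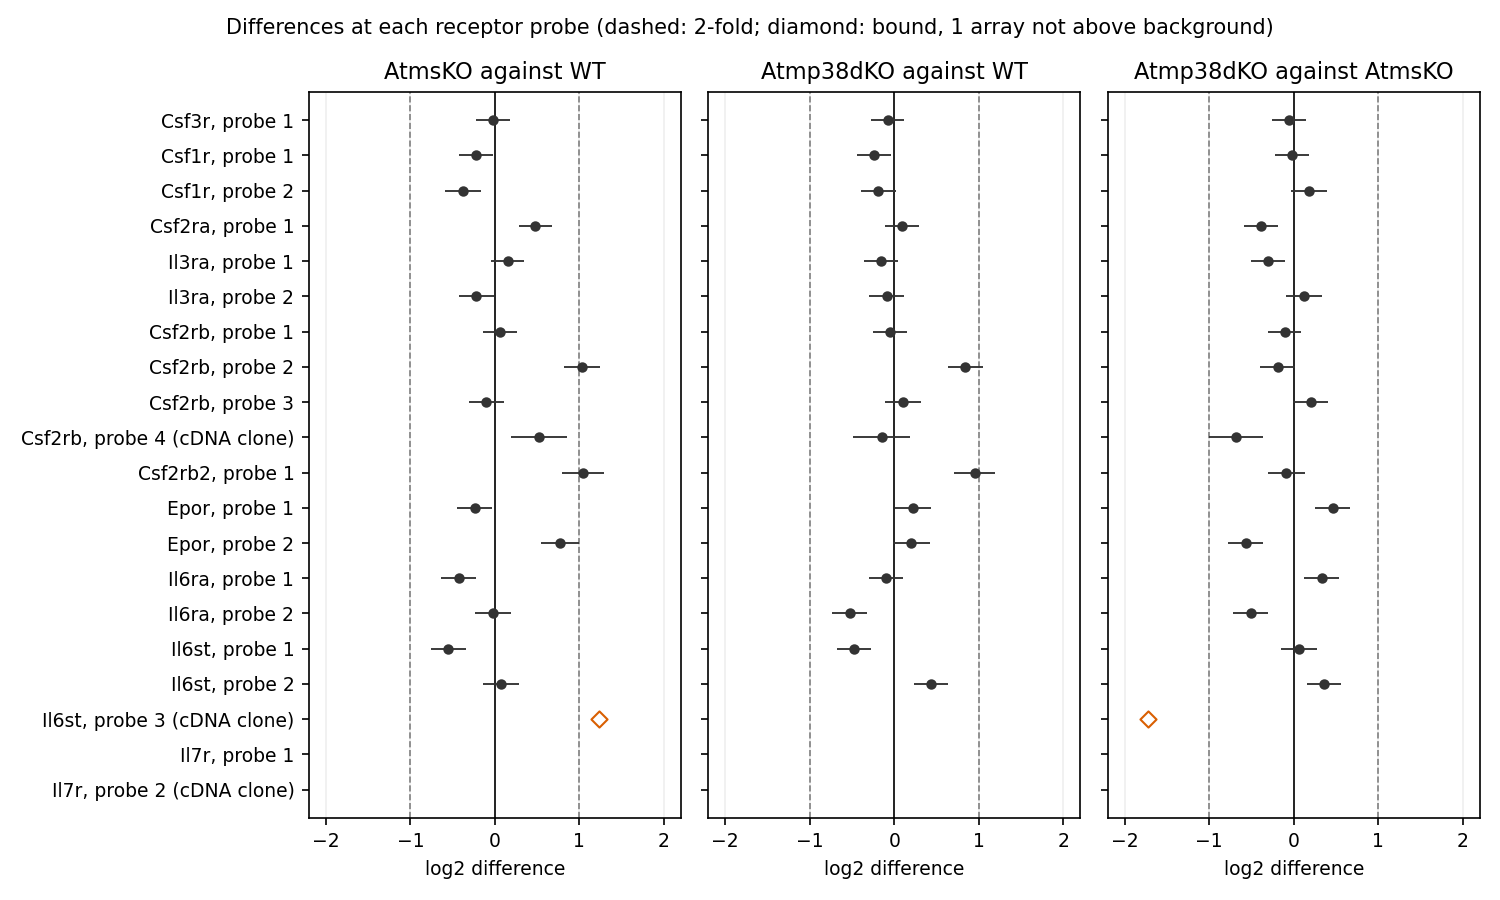
Log2 difference (x axis) of each receptor probe after scaling, for AtmsKO against WT, Atmp38dKO against WT and Atmp38dKO against AtmsKO; bars are the scanner error of the difference, dashed lines mark 2-fold, and open diamonds are bounds where 1 array was not well above background. Csf2rb probe 2 lies at 1.03 and 0.84 against WT while Csf2rb probe 1 lies at 0.06 and -0.05, and the 2 diamonds belong to the clone probe of Il6st.

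Probes of 1 gene often disagreed, among the receptors and elsewhere on the array. Over the 6 receptor genes with several probes well above background on both arrays, the median spread between the highest and lowest difference was 0.51 in AtmsKO against WT, 0.25 in Atmp38dKO against WT and 0.64 in Atmp38dKO against AtmsKO. Over all such genes, 7820 to 8309 a comparison, it was 0.51, 0.53 and 0.51. Where 1 probe of a gene was at least 2-fold different, its other probes were so in the same direction in 6.4%, 7.06% and 5.17% of cases. They had the same sign in 52.1%, 55.3% and 56.1%. Of all probes well above background on both arrays, 3.26% were at least 2-fold higher and 3.33% lower in AtmsKO against WT. These shares were 3.56% and 3.91% in Atmp38dKO against WT, and 3.24% and 3.28% in Atmp38dKO against AtmsKO. Large differences were also more frequent at low signal: in AtmsKO against WT, 15.7% of probes below 20 units, 9.9% from 20 to 100 units, 1.57% from 100 to 1000 units and 0.206% above that differed at least 2-fold either way. Plot probe 2 of Csf2rb falls in the second of these classes and the clone probe of Il6st in the first. No receptor spanned 2-fold over the 3 arrays at its brightest probe, the spans of the 8 detected receptors being 0.08 to 0.48 on the log2 scale, so no genes of like pattern were sought.

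Kit and Flt3, which were used in the sort, were near level at their RefSeq probes. Kit, the stem cell factor receptor, read 2652, 2773 and 3248 at its RefSeq probe on the 3 arrays in the order WT, AtmsKO, Atmp38dKO, with differences from WT of 0.14 and 0.08. Its 2 probes named by a cDNA clone read 430, 260 and 651 and 264, 143 and 349, and were higher by 1.03 and 1.00 in Atmp38dKO against AtmsKO. Flt3, whose absence was used in the sort, read 79.4, 70.3 and 101, with differences of -0.10 and 0.13.

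In a list of 41 other cytokine receptor genes, 2 of 62 probes considered were at least 2-fold higher in AtmsKO against WT. At least 2-fold lower was 1 of them, and the median was -0.01. In Atmp38dKO against WT it was 4 and 1 of 67 (median 0.05), and in Atmp38dKO against AtmsKO 5 and 3 of 66 (median -0.03). Of all probes considered, 4.29% were at least 2-fold higher and 4.74% lower in AtmsKO against WT. The shares were 4.69% and 5.07% in Atmp38dKO against WT, and 4.39% and 4.07% in Atmp38dKO against AtmsKO. The same shares belong beside the counts of each list below. Il18r1, a receptor chain for IL-18, read 6.28 in WT, 46.6 in AtmsKO and 25.3 in Atmp38dKO, which is 7.83-fold higher in AtmsKO than in WT and 3.46-fold higher in Atmp38dKO than in WT. With the normexp correction its differences from WT were 0.74 and 0.22 in place of 2.97 and 1.79. Another Il18r1 probe differed from WT by 0.85 in Atmp38dKO, but in AtmsKO it was too dim to count as well above background. Its differences of -0.01 in AtmsKO against WT and 0.86 in Atmp38dKO against AtmsKO are therefore "at least" values. In Atmp38dKO against AtmsKO the first probe was lower by 1.18, so the probes went opposite ways there. The rise in AtmsKO was thus read at the first probe only. Il12rb2, an IL-12 receptor chain, read 204, 105 and 270, a difference of -0.88 in AtmsKO against WT and 1.07 in Atmp38dKO against AtmsKO. Il12rb1, its partner chain, read 48.5, 69.2 and 39.2, a difference of -1.11 in Atmp38dKO against AtmsKO.

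Among receptors that share a subunit with the 9, Il5ra, the IL-5 binding chain that uses Csf2rb, read 77.0, 88.9 and 135, with differences from WT of 0.28 and 0.60. Il11ra1, which uses Il6st, read 401, 408 and 324, with differences of 0.10 and -0.52. At its brightest probe Lifr, which also uses Il6st, read 8.82 in WT and failed the background criterion in AtmsKO and Atmp38dKO, at least 2.06-fold lower in Atmp38dKO than in WT. Another Lifr probe met the criterion in Atmp38dKO alone and went the opposite way there, higher than in WT by at least 0.38. Osmr was not well above background on any array.

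Most direct ligands of the 9 receptors were dim in these cells. Il6 was not well above background on any array, Csf3 and Csf2 were on the Atmp38dKO array only, at 5.03 and 6.61, and the highest Il3 reading was 7.87. A list of 20 ligand genes has 34 probes, not all of which were bright enough to be considered. Of 22 considered in AtmsKO against WT, 1 was at least 2-fold higher and 2 were lower. It was 0 and 2 of 23 in Atmp38dKO against WT, and 1 and 3 of 25 in Atmp38dKO against AtmsKO. Osm, whose receptor uses Il6st, was well above background on all arrays at both of its probes. The brighter read 117, 54.4 and 65.7, with differences from WT of -1.03 and -1.05. The dimmer read 11.3, 11.1 and 6.06, with differences of 0.05 and -1.12. Under the other settings tried their differences in Atmp38dKO against WT were -1.07 to -0.64 and -1.22 to -0.26. Csf1, the Csf1r ligand, read 22.4, 5.46 and 30.9 at its brightest probe and was at least 3.47-fold lower in AtmsKO than in WT. Its other 2 probes were well above background on the AtmsKO array only, at 7.37 and 8.22, and so went the opposite way. Il7 was well above background at 1 probe on the AtmsKO array, at 13.4, at least 2.65-fold higher than in WT.

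Downstream of the receptors, 1 of 22 probes of JAK kinases and STAT factors was at least 2-fold higher in AtmsKO against WT, 1 in Atmp38dKO against WT and 0 in Atmp38dKO against AtmsKO, and 0 were at least 2-fold lower in each. The higher probe was of Tyk2 in both comparisons with WT. There, 0 of the 21 probes well above background on both arrays passed, and with the normexp correction 0 of 22. Jak1 read 483, 453 and 497 and Jak2 78.5, 77.8 and 114 on the 3 arrays in the order WT, AtmsKO, Atmp38dKO. Stat3, used by Csf3r and Il6st, read 5040, 4982 and 5897, with differences from WT of 0.06 and 0.01, and its other probes differed by 0.53 and 0.00 in AtmsKO and by -0.11 and -0.10 in Atmp38dKO. Stat5a, used by Csf2rb and Epor, read 1172, 1407 and 1814, with differences of 0.34 and 0.41, while its other probe differed by -0.08 and -0.07. Stat5b read 659, 719 and 792, with 0.20 and 0.05, and 0.83 and 0.25 at its other probe. The largest difference at a brightest probe was that of Jak3, the kinase that binds Il2rg, which read 629, 358 and 692, a difference of -0.74 in AtmsKO against WT, where its other probes differed by 0.09 and -0.14.

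Of 35 probes of receptor adaptors and signal relays, 0 passed in either direction in AtmsKO against WT, 4 were at least 2-fold higher and 1 lower in Atmp38dKO against WT, and 1 was higher and 0 were lower in Atmp38dKO against AtmsKO. In Atmp38dKO against WT the higher probes were of Grb10, Lyn, Stam2 and Syk, and the lower one was another Stam2 probe. Among the 33 probes well above background on both of these arrays, 2 were higher and 1 lower. With the normexp correction, 0 of 35 passed in either direction. The adaptor Gab1 read 110, 110 and 68.5, a difference of -0.90 in Atmp38dKO against WT, short of the threshold. Among negative regulators, 2 of 52 probes were at least 2-fold higher and 2 lower in AtmsKO against WT, 2 and 4 of 54 in Atmp38dKO against WT, and 1 and 1 of 54 in Atmp38dKO against AtmsKO. Socs5 read 80.2, 196 and 89.8, a difference of 1.37 in AtmsKO against WT and -1.42 in Atmp38dKO against AtmsKO. With the normexp correction, 0 of the negative regulator probes, those of Socs5 included, reached 2-fold in any comparison. Socs3, which is induced by STAT3 and inhibits Csf3r and Il6st, read 341, 301 and 298, with differences from WT of -0.10 and -0.41. Cish, a STAT5 target that inhibits the same pathway, read 163, 126 and 139, with -0.30 and -0.45. Socs1 read 17.6, 14.8 and 21.2 and Socs2 68.8, 79.5 and 87.6.

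In a list of 23 STAT target genes, 8 of 43 probes (18.6%) were at least 2-fold lower in Atmp38dKO against WT and 2 were higher, beside the 5.07% and 4.69% of all probes given above, with a median of -0.21. This list, like the others, was chosen with earlier results of these data known, so its share is not independent of them. In AtmsKO against WT, 2 of its probes were higher and 2 lower (median 0.10), and in Atmp38dKO against AtmsKO 0 and 3 (median -0.16). The 8 lower probes belonged to Pim1, Junb, Id1, Bcl6, Hif1a, Fos and, with 2 probes, Osm, of which Hif1a, Fos and Junb were named after their values were seen. Several of these genes answer to many signals besides cytokines, Fos and Junb being early response genes and Id1 a target of BMP signaling. The 2 higher probes went the opposite way and were of Bcl2 and Pim2. In the order WT, AtmsKO, Atmp38dKO, Bcl2 read 29.1, 48.9 and 77.1 and Pim2 12.0, 16.7 and 31.2. Their differences in Atmp38dKO against WT were 1.19 and 1.17, and at the lowest 0.52 and 0.21 under the other settings tried. Bcl2 too was named after its values were seen. With the normexp correction, 3 of 43 were lower and 0 higher, where 0.424% and 0.242% of all probes were. Other probes of Junb differed by -0.24 and 0.21, of Hif1a by -0.33 and 0.39, and of Bcl6 by 0.52 in that comparison. Some cell type marker lists also held such probes in Atmp38dKO against WT, beside the same 5.07% lower and 4.69% higher of all probes. In the monocyte and macrophage list 3 of 14 probes were at least 2-fold lower and 0 higher (median -0.22), those of Adgre1, Cd163 and Ly86. In the LT-HSC list 3 of 30 were lower and 1 higher (median -0.22), the lower ones being of Fgd5 and Hoxb5. In the granulocyte list 0 of 15 passed in either direction (median 0.16), and in the T and NK cell list 0 of 23. Other marker lists went both ways or higher. In the endothelial and stromal list 4 of 23 were higher and 1 lower, and in the erythroid list 2 and 1 of 18. It was 2 and 2 of 10 for mast cells and basophils and 1 and 1 of 19 for B cells. It was 1 and 0 of 20 for dendritic cells, while for megakaryocytes 0 of 16 were higher and 1 lower. The part of such cells in the STAT target values was not tested.

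Pim1, a kinase gene known as a STAT5 and STAT3 target, read 936 ± 93.6 in WT, 1134 ± 113 in AtmsKO and 363 ± 36.3 in Atmp38dKO. It was 2.99-fold lower in Atmp38dKO than in WT and 3.83-fold lower than in AtmsKO, with differences of -1.60 to -1.40 and -1.95 to -1.72 under the other settings tried. Id1 read 339, 249 and 153, a difference of -1.36 in Atmp38dKO against WT. Junb read 243, 169 and 109, a difference of -1.37, and Fos 3323, 2559 and 1801, a difference of -1.1. At these probes all 4 genes were lowest on the Atmp38dKO array, and Junb, Id1 and Fos lay between on the AtmsKO array. Bcl2l1, which encodes the survival factor Bcl-xL, read 329, 492 and 287 at its brightest probe, a difference of -1.07 in Atmp38dKO against AtmsKO, and its other 4 probes differed the same way, by -0.46 to -0.95.

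**Figure D3:**
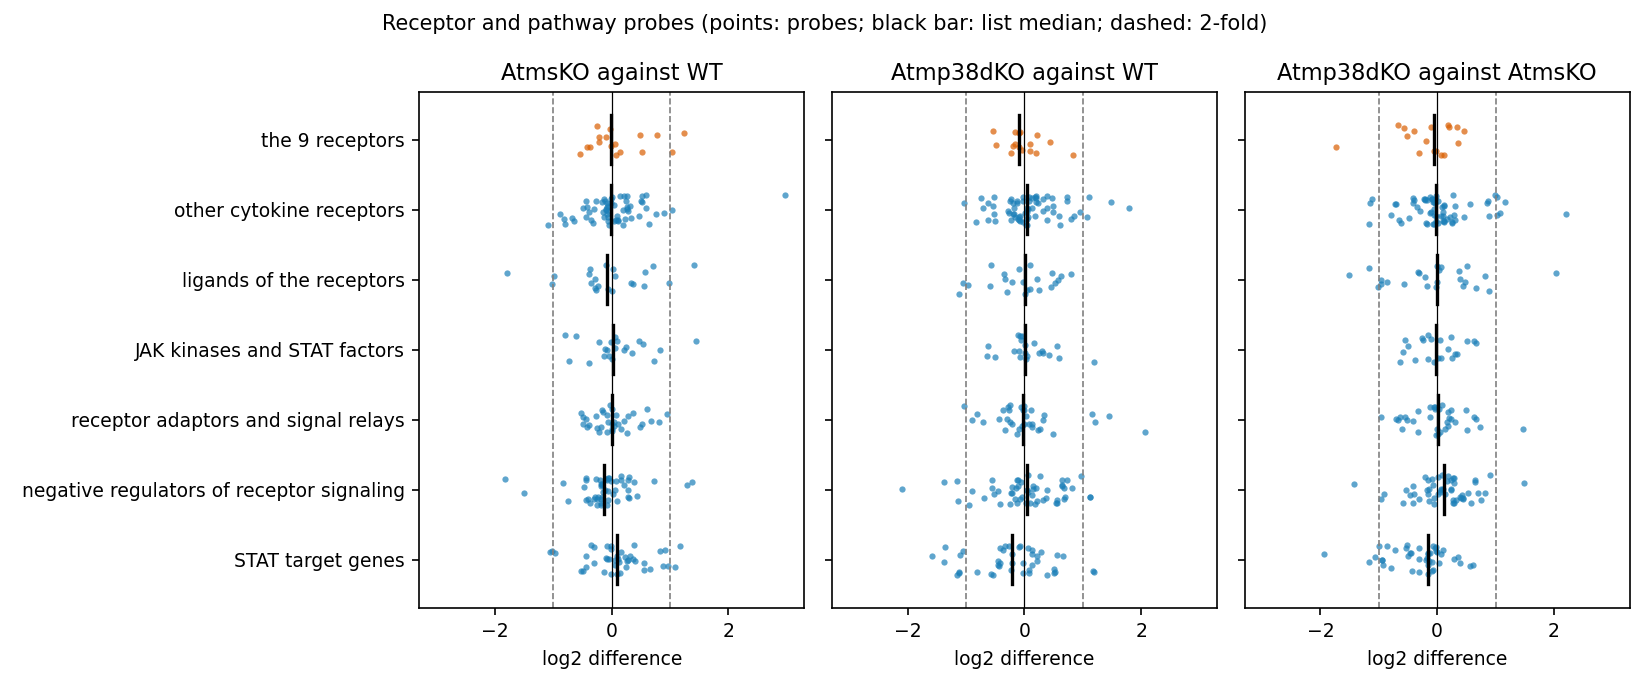
Log2 difference (x axis) of each probe of the 9 receptors (orange) and of the 6 pathway lists (blue) in AtmsKO against WT, Atmp38dKO against WT and Atmp38dKO against AtmsKO; black bars are list medians and dashed lines mark 2-fold. The receptor probes lie within 2-fold except 1 probe of Csf2rb and 1 of Il6st. The lone point near 3 is 1 of the Il18r1 probes, and the STAT target list has 8 of 43 probes at or below -1 in Atmp38dKO against WT.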

How the data were processed

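LT-HSC RNA was measured on 3 1-colour Agilent arrays of 62976 spots, 1 per genotype, all on 1 slide and 1 scan. The authors deposited scanner output in which gProcessedSignal is an intensity after background subtraction, made with Agilent Feature Extraction 11.5.1.1 (submitters' processing notes). They also deposited a table of log2 values, which lay within 0.02 of the log2 signal minus the array's 75th percentile for 99.8% or more of probes (column medians -2.18, -2.22 and -2.17). Normalization was done by a contractor. Groups came from the sample titles.

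Outlier spots (57, 75 and 83) were left out, repeat spots averaged, and signals scaled to the 75th percentile before log2. A probe was well above background if over 50% of its spots were. Gene names are those of the array design, with mm9 positions, and all 16 receptor probes with a RefSeq transcript matched their symbol in the GRCm38.p6 gene table. Whether a probe lies in coding sequence or a UTR was not analysed here. With 1 array per group no test was possible, and their small number sets the precision. Scripts were tested on simulated data. Alternatives were 2 scalings, normexp (offset 50, limma 3.58.1 in R 4.3.3), the authors' values, and changes to floor, filter and probes per gene, and those for pathway lists, Csf2rb2 and dimmer receptor probes were chosen after seeing the data. The 9 genes and all lists were chosen with earlier results of these data known. The rule for named genes took all receptor probes, Csf2rb2, Kit, Flt3, Atm, Mapk14, a fixed set of pathway genes, and from each list up to 3 genes with the largest difference at their brightest probe. Some genes under this rule are not reported here.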

Additional observations from a re-analysis of the deposited data

How the results depend on the processing

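No paired analysis was possible because WT, AtmsKO and Atmp38dKO had 1 array apiece and no result came from a test, and for the same reason no array could be left out. The yardstick was the median spread (SD) of repeat spots over all signal levels, 0.053 on the log2 scale. Most of those spots read above 100 units, and at 20 to 100 units the spread was 0.137 to 0.184. Of the values for single receptor probes under 7 of the 8 alternatives (1 probe per gene gives none), 298 moved by less than 0.053, 50 moved by more, and 0 of those past 2-fold changed sign. Of the counts and medians, 65 stayed within 1.5 times (counts) or 0.053 (medians) and 7 did not. The count of receptor probes at least 2-fold higher in AtmsKO against WT, 2 in the report, was 0 with normexp, 1 with probes well above background on both arrays, and 0 with 1 probe per gene. The count at least 2-fold lower in Atmp38dKO against AtmsKO, 1 in the report, was 0 under each of these 3. Filtering and 1 probe per gene remove probes by construction. The median in Atmp38dKO against AtmsKO, -0.06 in the report, was 0.05 with quantile normalization, and the cause was not tested.

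Normexp with its offset lowered counts over all probes, to 143 higher and 135 lower in AtmsKO against WT (1844 and 2034 in the report), 110 and 193 in Atmp38dKO against WT (2134 and 2309), and 85 and 174 in Atmp38dKO against AtmsKO (1967 and 1824). Without a floor these were 2230 and 3304, 3494 and 2716, and 3983 and 1955. Dropping the background filter too gave 3675 and 5030, 4932 and 4279, and 5391 and 3283, and keeping only probes well above background on both arrays 1224 and 1252, 1423 and 1564, and 1239 and 1253. The authors' values gave 2250 and 3320, 3518 and 2728, and 4008 and 1969. Over the alternatives, plot probe 2 of Csf2rb differed from WT by 0.61 to 1.03 in AtmsKO and 0.48 to 0.84 in Atmp38dKO, Csf2rb2 by 0.29 to 1.06 and 0.17 to 0.95, and the clone probe of Il6st by 0.20 to 1.30 in AtmsKO. Signal over background limits the readings of Il7r, the ligands and the clone probes.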
